A study of Drosophila melanogaster with 3 samples.

Results

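Mitochondrial ribosomal protein genes were taken as the protein-coding genes whose symbols begin with mRpL (large subunit) or mRpS (small subunit) in the Ensembl annotation of the fly genome. The rule gave 73 of 13945 protein-coding genes, 47 for the large and 26 for the small subunit. A gene was called marked where the summit of at least 1 peak of the authors' thresholded list lay within 1 kb of an annotated transcription start site (TSS) of the gene. By this rule 23 of the 73 genes (31.5%, 95% Wilson interval 22.0 to 42.9) were marked, while 20.5% of all protein-coding genes were. Most of these summits lay nearer to the start of another gene. Only 5 of the 23 marked genes (21.7%) had their own TSS as the nearest one to the summit, and 75.5% of all marked genes did. In 22 of the 23 (95.7%) the summit was shared with a divergently transcribed protein-coding neighbour, and in 44.2% of all marked genes. Sharing is common wherever such a neighbour starts within 1 kb: it held for 86.2% of all marked genes with one. Among marked genes with such a neighbour, the own TSS was nearest for 18.2% of 22 members and for 54.6% of all. A summit can count there for both partners of a pair. Among marked genes with a single annotated TSS the shares were 19.0% and 67.9%.

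The mitochondrial ribosome translates the few messenger RNAs of the mitochondrial genome, which in animals encode membrane subunits of the respiratory chain and of ATP synthase. All of its proteins are encoded in the nucleus, made in the cytosol and imported, and they assemble on ribosomal RNAs made inside the organelle. Some have bacterial namesakes and others occur only in mitochondria. In Drosophila a mutation in a gene of this class, tko, is known for slow development and sensitivity to mechanical shock.

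The factor mapped was Squeeze (sqz), a zinc finger transcription factor best known from the specification of certain neurons of the embryonic nerve cord. ChIP-seq, which recovers and sequences the DNA bound to a chosen protein, was made from embryos of both sexes, collected whole between 0 and 16 h of age, of a transgenic Drosophila melanogaster line in which sqz carries GFP at its C-terminus. The 3 biological replicates form a single group, and no other genotype, age or treatment was there to compare them with. Signal from all cells of the embryo was averaged, and the lists hold no read counts, so depth is unknown and intervals cover counting error only. A description label speaks of input controls, but sqz is given as the antibody and a separate control alignment is named, so the libraries were read as ChIP.

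Sequences at 3 of the summits that marked members of the family are shown because each lies nearer to the start of the divergent neighbour than to that of the ribosomal protein gene. They are not the 3 strongest: mRpL41, mRpL53, mRpL23 and mRpS16 had stronger summits than mRpL2. Of these, mRpL41 and mRpL23 had their own start nearest. Each run is written 5′ to 3′ on the strand of the neighbour, from Release 6 of the fly genome (dm6), and ends 15 bases inside the neighbour's transcript that starts nearest to the summit. Capitals mark the 11 bases centred on the summit.
mRpS10, at the Art3 start, chr3R:15229394-15229558, minus strand: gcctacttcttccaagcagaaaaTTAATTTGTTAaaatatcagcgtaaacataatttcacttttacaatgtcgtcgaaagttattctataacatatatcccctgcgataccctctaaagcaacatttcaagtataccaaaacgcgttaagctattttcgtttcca
mRpS23, at the CenG1A start, chr2L:13835414-13835578, plus strand: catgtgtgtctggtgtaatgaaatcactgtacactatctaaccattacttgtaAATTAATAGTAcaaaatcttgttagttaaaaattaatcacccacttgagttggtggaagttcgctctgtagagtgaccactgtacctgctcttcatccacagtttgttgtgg
mRpL2, at the FoxK start, chr3L:11120397-11120561, minus strand: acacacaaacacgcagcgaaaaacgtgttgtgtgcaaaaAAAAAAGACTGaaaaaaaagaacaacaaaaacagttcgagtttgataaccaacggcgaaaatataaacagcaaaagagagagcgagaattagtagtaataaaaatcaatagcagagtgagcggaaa
The bases in capitals lie upstream of Art3, which encodes an arginine methyltransferase, of CenG1A, which encodes a GTPase-activating protein of the centaurin family, and of FoxK, which encodes a forkhead transcription factor. The summit lay 122, 92 and 106 bp from these starts, against 135, 400 and 330 bp from the starts of mRpS10, mRpS23 and mRpL2. At mRpS10 the peak spans both starts. Only 39.1% of the 23 marked genes had a strong summit within 50 bp in all 3 libraries, so which start is nearer at mRpS10 is uncertain. The A-rich bases at the mRpL2 summit belong to a longer run of A on this strand. In the family, 17 of 23 strongest summits had the word AAAAAA within 100 bp on either strand (73.9%), and 69.3% of the summits of all marked genes had it.

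The marked share was set against genes of other lists and against genes of the same arrangement. The large subunit had 14 of 47 genes marked (29.8%, interval 18.7 to 44.0) and the small subunit 9 of 26 (34.6%, interval 19.4 to 53.8). These intervals overlap, and both hold the 20.5% of all protein-coding genes. Members whose numbers are shared with bacterial ribosomal proteins were marked in 14 of 42 cases (33.3%), and those with higher numbers in 9 of 31 (29%). The number is only a naming convention: mRpL47, for one, is the counterpart of a human protein homologous to a bacterial one. When a summit was credited only to the gene of its nearest TSS, 5 of 73 members were marked (6.85%, interval 2.96 to 15.1), while 16.2% of all protein-coding genes were. The family thus stood above all genes by the first rule and below them by the second. Among genes with a single annotated TSS, the second rule marked 5.97% of 67 members (interval 2.35 to 14.4) and 9.8% of all genes, a value inside that interval. Among genes with a divergent protein-coding neighbour, it marked 6.9% of 58 members (interval 2.71 to 16.4) and 17.7% of all genes, a value above that interval. Cytosolic ribosomal protein genes, by contrast, were marked in 60 of 92 cases (65.2%) by the first rule and in 58 (63.0%) by the second. Support from single libraries moved the first share: where a summit had to be met in both replicates 1 and 2, 15 members were counted (20.5%), while 14.4% of all genes were. For the large subunit, asking for both replicates 1 and 3, or both 1 and 2, gave 17.0% in either case. All protein-coding genes stood at 14.3% and 14.4% in these settings.

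**Figure D1:**
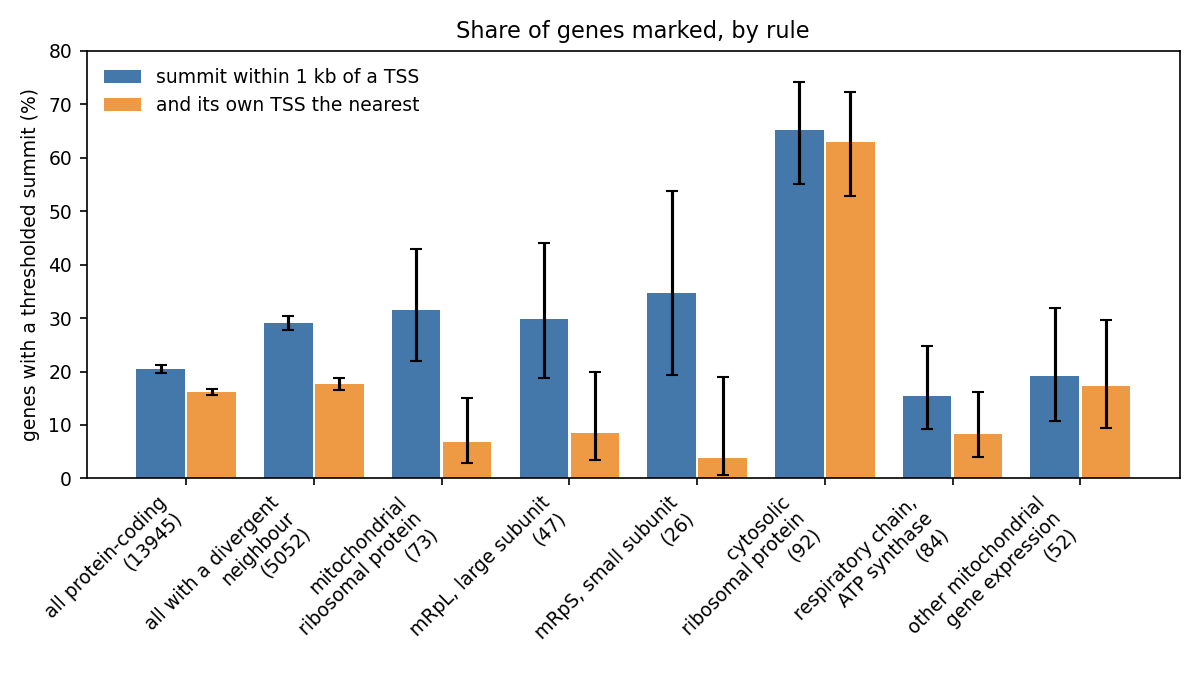
Share of genes (%) marked by a thresholded summit at most 1 kb from a TSS (blue) and with their own TSS also the nearest to it (orange), for all protein-coding genes and 7 lists, with the number of genes in brackets. Error bars are 95% Wilson intervals, and the family drops from 31.5% to 6.85% between the rules while cytosolic ribosomal protein genes stay above 60%.

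The arrangement of the genes differed from the genome as a whole. A divergent protein-coding neighbour starting within 1 kb was annotated for 58 of 73 members (79.5%) and for 36.2% of all protein-coding genes, and for 59.8% of cytosolic ribosomal protein genes. Among members with such a neighbour 22 of 58 were marked (37.9%, interval 26.6 to 50.8), and 29.1% of all genes with one were, a value inside that interval. Of the 15 members without one, only mRpL19 was marked (6.67%), and 15.7% of all such genes were. The gap between the paired starts had a median of 283 bp over the 58 members, from 20 to 793 bp. It had a median of 388 bp in the 22 marked pairs and of 280 bp in the 36 unmarked ones. Most members have a single annotated TSS, and among those 21 of 67 were marked (31.3%), against 13.9% of all genes with a single TSS.

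Where a neighbour has several annotated starts, gaps refer to its start closest to the member and distances to its start closest to the summit. In the 22 shared cases the summit lay a median of 119 bp from the neighbour's TSS (17 to 831 bp) and 280 bp from the member's own. The neighbour's start was within 200 bp in 17 of the 22. Which start is nearer is uncertain where both distances are close, as at mRpS10 (122 bp from the neighbour, 135 bp from its own) and mRpS7 (214 and 186 bp). The same holds at mRpL52 (17 and 33 bp), mRpS28 (31 and 73 bp), mRpS2 (96 and 126 bp), mRpS22 (169 and 223 bp) and mRpL23 (117 and 67 bp). The sample labels give DNA fragments longer than the differences at these genes, so counts by nearest start carry this uncertainty. The member's own start was the nearer of the pair in 5 of 22 (22.7%, interval 10.1 to 43.4) and in 37 of 40 for cytosolic ribosomal protein genes (92.5%). At mRpL55, one of these genes, a further gene was nearer still. Over the 1265 marked genes with a shared summit the share was 48.9%, but a summit can enter there once for each partner of a pair, which draws the value to the middle, so it is no reference. The summit fell between the paired starts in 10 members, beyond the neighbour's start in 9, and on the member's own side in 3. The remaining gene is mRpL19. Measured along the member, the summit was upstream in 20 of 23 (87.0%), and in 68.8% of all marked genes. The median position was -251 bp (range -680 to 736), whereas it was -118 bp for all marked genes and -1.5 bp for cytosolic ribosomal protein genes. Within 100 bp of the own start lay 4 of the 23 summits (17.4%), and 29.7% of those of all marked genes. For cytosolic ribosomal protein genes this share was 90.0%.

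**Figure D2:**
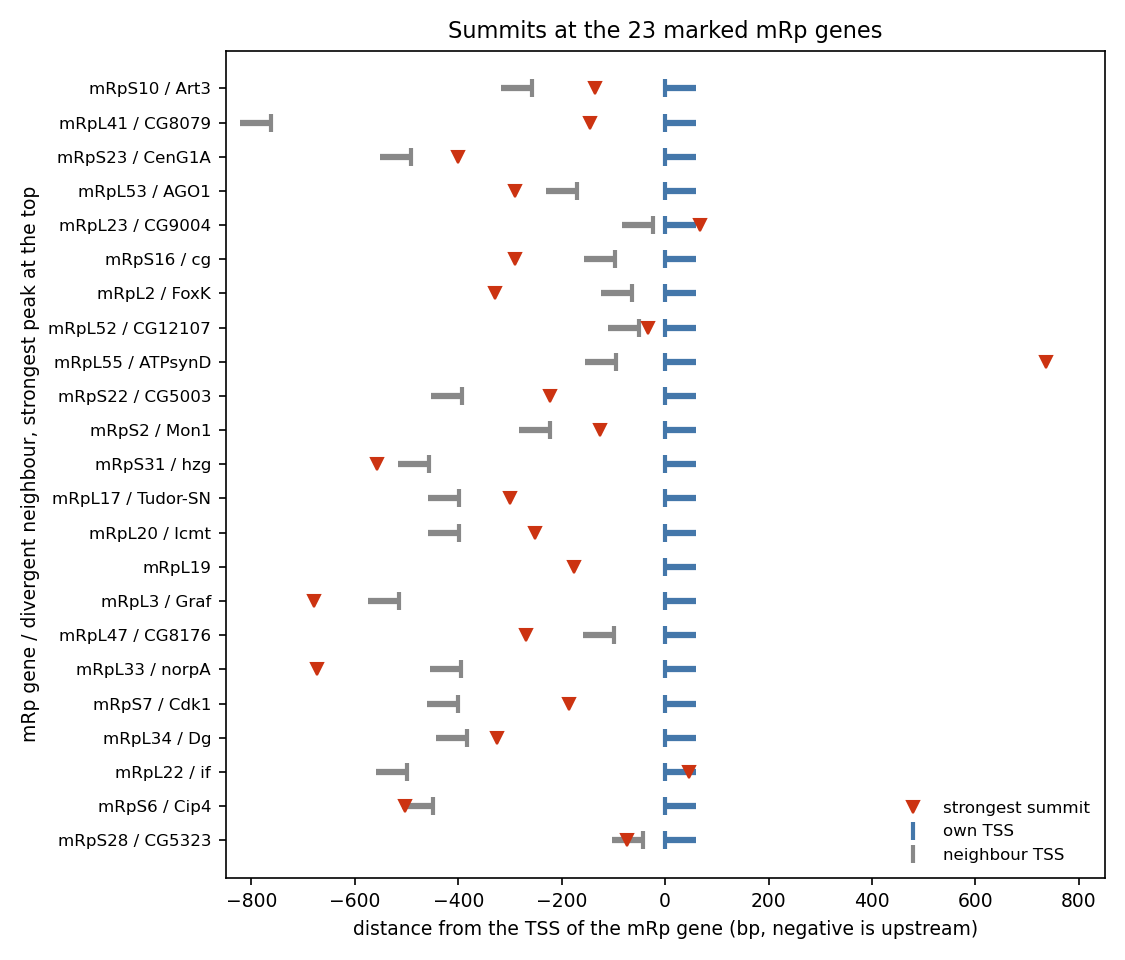
Position (bp) of the strongest thresholded summit (red triangle) at each of the 23 marked genes, relative to the gene's own TSS at 0 (blue bar) and to the TSS of the divergent neighbour closest to it (grey bar), ordered by signal. Short horizontal lines point in the direction of transcription, and for 9 genes the summit lies beyond the neighbour's start.

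Of the small subunit, which reads the messenger RNA, mRpS10 held the strongest summit of the family. This gene (FBgn0038307, plus strand, 15229665 to 15230516 on 3R of dm6) had a summit at position 15229530 in a peak from 15229359 to 15229714. Its signal value was 2103, the authors' peak strength on a scale that is not stated, and it ranked 12 of the 6578 thresholded peaks. The ranks in replicates 1, 2 and 3 were 6, 23 and 26, so all 3 libraries placed it among their strongest peaks. At mRpS23 (FBgn0260407, minus strand, 13834250 to 13835072 on 2L) the summit at position 13835472 had a signal of 1637 and ranked 24, 50 and 47 in the libraries. The neighbours of both, Art3 and CenG1A, start 257 and 492 bp away. The next in strength, mRpS16, whose summit lay 193 bp beyond the start of combgap (cg), a zinc finger protein gene, had a signal of 600.7 and ranked 2003, 711 and 425.

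The other small subunit genes had weaker peaks. For mRpS22 the signal was 340.9, with ranks of 1200, 3040 and 2845, and the summit lay 169 bp from the start of CG5003. For mRpS2 it was 340.0, with ranks of 1412, 3541 and 2039, at 96 bp from Mon1, a gene of late endosome maturation. The gene mRpS31 had 2 summits within 1 kb, of signals 323.9 and 169, and the stronger lay 101 bp inside herzog (hzg). The summit of mRpS7 is the only one of the 9 nearest to the small subunit gene itself, 186 bp upstream of it and 214 bp from Cdk1, the mitotic cyclin-dependent kinase gene. Its ranks of 1893, 8103 and 6354 put it among the strongest 6578 peaks of replicates 1 and 3 alone. Signals of 225.3 at mRpS6, beside the F-BAR protein gene Cip4, and 188.8 at mRpS28, 31 bp from CG5323, were the lowest of the small subunit. All 9 summits were upstream of the small subunit gene.

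Among large subunit genes, mRpL41 had the strongest summit and was one of 4 whose own start was the nearest. Its signal was 1794, 146 bp upstream of the TSS, with ranks of 11, 37 and 43 in replicates 1, 2 and 3. The divergent neighbour CG8079 starts 762 bp away. At mRpL53 the stronger of 2 summits had a signal of 1210 and ranks of 117, 87 and 98, and it lay 121 bp inside AGO1, the Argonaute of the microRNA pathway. At mRpL23, whose bacterial namesake lines the exit of the peptide tunnel, the summit lay 67 bp downstream of the own TSS. It had a signal of 935 and ranks of 112, 285 and 367, and the neighbour CG9004 starts only 24 bp away. These 3 peaks were high in all 3 libraries, and their ranks did not overlap those of the other 11 marked large subunit genes.

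The bacterial namesakes of mRpL2 and mRpL3 lie near the centre where peptide bonds form, and both genes had weaker peaks. The stronger of 2 summits at mRpL2 had a signal of 468.7 and ranks of 2968, 783 and 1081. The summit at mRpL3 lay 680 bp upstream, 81 bp inside Graf; its signal was 266.5, its ranks in replicates 2 and 3 were 1799 and 7549, and no summit within 100 bp was listed in replicate 1. At mRpL22, a tunnel protein gene, the summit lay 46 bp downstream of the own TSS and 545 bp from inflated (if), an integrin gene, with a signal of 231.1. In these 3 genes the summit thus lay beyond the neighbour's closest start at mRpL2 and mRpL3 and inside the own gene at mRpL22.

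The remaining 8 large subunit genes had signals from 232.5 to 455.8. At mRpL52 the summit lay in the 50 bp between its start and that of CG12107, 33 bp from the first and 17 bp from the second. The summit at mRpL55 lay 736 bp downstream, near the start of center divider (cdi), a kinase gene, at 101 bp, and it is also within 1 kb of ATPsynD, a subunit of ATP synthase. Both mRpL17 and mRpL20 have a neighbour at 399 bp, Tudor-SN and Icmt, and their summits lay 98 and 148 bp from it. Summits at mRpL47, mRpL33 and mRpL34 lay 171, 278 and 59 bp from CG8176, norpA (phospholipase C of the photoreceptors) and Dg (dystroglycan). For mRpL19, the marked gene with no divergent neighbour, the summit lay 177 bp upstream with a signal of 272.4, and its ranks of 10670, 1939 and 4066 leave it outside the strongest 6578 of replicate 1.

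Over the 23 genes the median signal was 323.9 (188.8 to 2103), while it was 332 over all marked genes and 458 over marked cytosolic ribosomal protein genes. The median pooled rank was 2278, near the 2175 of all marked genes. Within the first 100 ranked 4 genes, a count for which no share over all genes is at hand. In the stronger 3289 of the 6578 thresholded peaks lay 17. A summit among these 3289 peaks marked 23.3% of the 73 members and 13.6% of all protein-coding genes. Within 100 bp of the pooled summit, replicates 1, 2 and 3 had a summit of their own 6578 strongest peaks for 18, 20 and 21 of the 23 genes. These shares of 78.3%, 87.0% and 91.3% were near the 79.7%, 83.7% and 82.5% of all marked genes. In 15 of the 23 such a summit was found in all 3 libraries (65.2%), and in 59.9% of all marked genes. Another 6 genes were met in 2 libraries, and mRpL3 and mRpL34 in 1 each. Against the full library lists of 30000 peaks, mRpL3 lacked a match in replicate 1 and mRpL34 in replicate 3. Taken on their own, the strongest 6578 peaks of replicates 1, 2 and 3 marked 28, 21 and 23 members (38.4%, 28.8% and 31.5%), while 25.6%, 20.1% and 20.4% of all protein-coding genes were marked. The family was above all genes in each library.

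**Figure D3:**
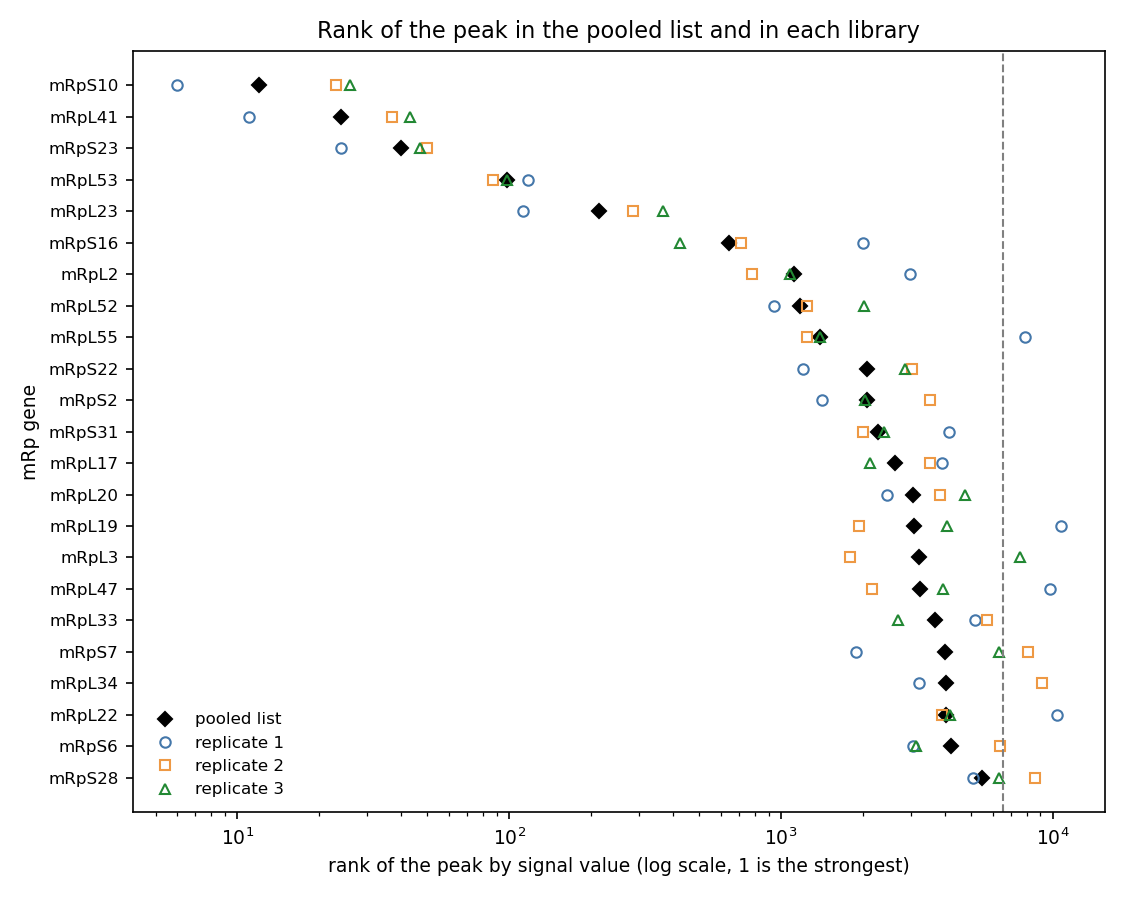
Rank by signal (log scale, 1 is the strongest) of the peak at each of the 23 marked genes in the pooled list (black diamonds) and in replicates 1, 2 and 3 (open circles, squares and triangles). The dashed line stands at rank 6578, and a missing symbol means no summit within 100 bp in that library; the first 5 genes are ahead of the rest in every library, and most ranks past the line come from replicate 1 or 2.

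Of the 50 unmarked members, 9 had a summit within 1 kb in the pooled list of 30000 peaks, which brought the family to 32 of 73 (43.8%), while 37.3% of all protein-coding genes had one. The best placed were mRpL4, at pooled rank 7449, mRpS21 at 7954 and mRpS26 at 9368, all behind the weakest marked gene, mRpS28 at 5462. Their pooled summits lay 182, 157 and 316 bp upstream of the gene. They were followed by mRpL18, mRpL32 and mRpS5 at ranks 9468, 11676 and 13264. A thresholded summit just outside the limit lay 1393 bp from mRpS35, 1416 bp from mRpL13 and 1869 bp from mRpL12, while the most distant ones inside it lay at 736, 680 and 673 bp. Over the 50 unmarked members the median distance to the nearest thresholded summit was 9151.5 bp, 36 were over 5 kb away and 24 over 10 kb. The same distances over all unmarked protein-coding genes are not at hand, so these have no reference. For mRpS5 the nearest thresholded summit was 1437387 bp away. The mitochondrial ribosomal protein genes tko and bonsai, whose symbols fall outside the rule, were unmarked in the thresholded and the pooled lists.

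The starts of these genes often held a short word that was mostly not at the summits. The E-box CAGCTG, a palindrome of the kind that basic helix-loop-helix proteins bind, was present in the promoters (250 bases before to 50 after the TSS) of 40 of 73 members (54.8%, interval 43.4 to 65.7) and of 17.7% of all protein-coding genes. Windows of 70 bases are shown for 4 marked and 4 unmarked members that have the word near their start, to let the places of the word be compared; they were chosen after the counts were known. Each runs 5′ to 3′ on the gene's own strand in Release 6 (dm6), from 40 bases before the TSS to 30 bases from it, with the word in capitals.
mRpL2, chr3L:11120807-11120876, plus strand: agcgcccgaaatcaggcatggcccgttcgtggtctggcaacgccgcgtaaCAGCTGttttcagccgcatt
mRpL55, chr3R:19094876-19094945, minus strand: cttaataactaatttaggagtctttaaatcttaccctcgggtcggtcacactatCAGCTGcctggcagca
mRpS2, chr2L:4850390-4850459, minus strand: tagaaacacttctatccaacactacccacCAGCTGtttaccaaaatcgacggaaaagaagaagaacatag
mRpL17, chr3L:264739-264808, plus strand: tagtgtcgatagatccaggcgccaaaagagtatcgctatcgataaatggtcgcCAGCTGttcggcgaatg
mRpL11, chr3R:14511798-14511867, plus strand: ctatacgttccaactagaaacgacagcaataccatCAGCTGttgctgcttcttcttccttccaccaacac
mRpS18B, chr2L:20097224-20097293, minus strand: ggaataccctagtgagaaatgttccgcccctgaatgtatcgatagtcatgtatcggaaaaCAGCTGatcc
mRpL21, chr3L:19255032-19255101, minus strand: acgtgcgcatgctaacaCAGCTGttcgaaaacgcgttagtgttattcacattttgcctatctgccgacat
mRpS21, chr3R:13381780-13381849, minus strand: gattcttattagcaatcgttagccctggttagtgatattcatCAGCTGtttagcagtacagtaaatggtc
The first 4 genes are marked and the last 4 are not. In 6 of the 8 windows the word is followed by the bases TT. The longer word CAGCTGTT, sought on both strands after these windows had been seen, was present in the promoters of 27 of 73 members (37.0%) and of 7.62% of all genes.

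The word was found in 13 of 23 marked members (56.5%, interval 36.8 to 74.4) and in 27 of 50 unmarked ones (54.0%, interval 40.4 to 67.0), and these intervals overlap. It was found in 57.4% of large and 50% of small subunit genes. With and without a divergent neighbour it was found in 53.4% and 60% of members, and in 22.0% of all genes with such a neighbour. Promoters of the 60 neighbours themselves had it in 23 cases (38.3%); these windows can overlap those of the members where starts are close. Of the 40 members with the word, 35 had 1 copy and 5 had 2, and 38 had it within 100 bp of the TSS, with the median of the nearest centre at +7 bp. Counted in the window of 50 bases on each side of the TSS, 47.9% of members and 9.34% of all genes had it.

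Summits were mostly elsewhere. Within 100 bp of the strongest summit the word CAGCTG was found at 3 of 23 marked members (13.0%), mRpL34, mRpL52 and mRpS28, and at 10.8% of the summits of all marked genes. In the 13 marked members with the word in the promoter, the summit lay a median of 291 bp from it (42 to 719 bp), and within 100 bp in 2. The other E-box sought, CACGTG, was found in 6.85% of the family's promoters and 4.24% of all.

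**Figure D4:**
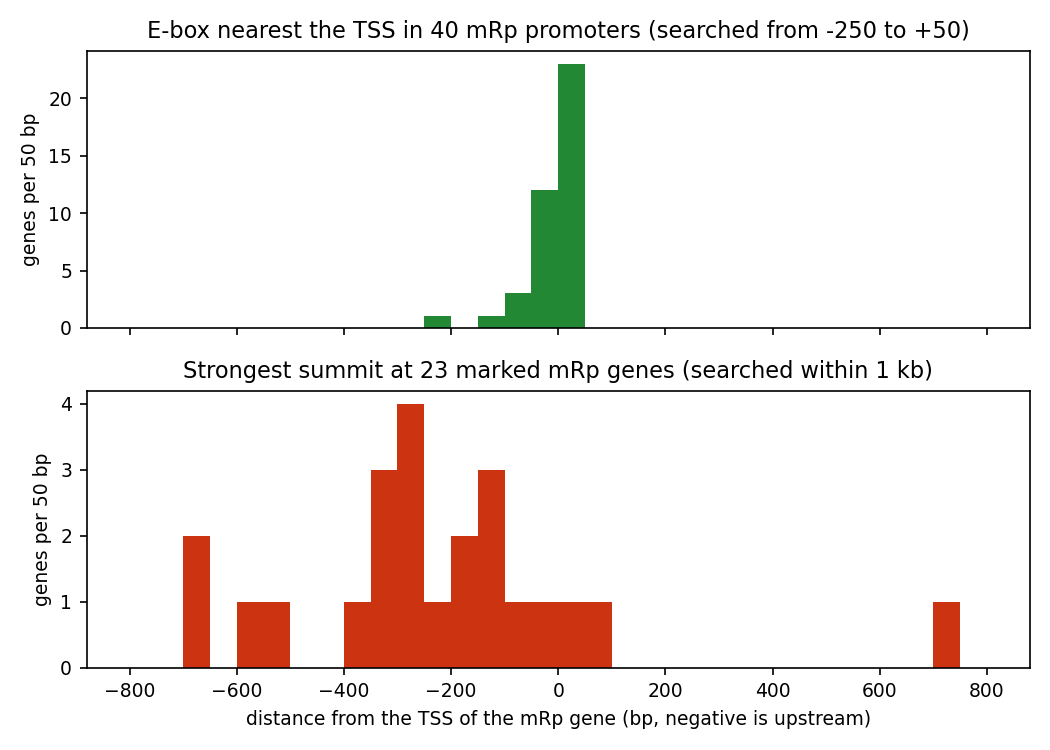
Number of genes per 50 bp by distance from the gene's own TSS (bp), for the E-box nearest the TSS in the 40 promoters that hold one (top, searched from 250 bases before to 50 after the TSS) and for the strongest summit at the 23 marked genes (bottom, searched within 1 kb). The E-boxes pile up at the TSS, with a median of +7 bp, while the summits are spread upstream with a median of -251 bp; the search windows differ.

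Other words differed less between the family's promoters and those of all genes. The DNA replication-related element TATCGATA, the site of the factor DREF and common at housekeeping genes of the fly, was present in the promoters of 15 of 73 members (20.5%, interval 12.9 to 31.2), of 9.37% of all genes and of 30.4% of cytosolic ribosomal protein genes. It was found within 100 bp of none of the 23 strongest summits (interval 0 to 14.3%) and at 4.80% of the summits of all marked genes. This depended on the window: within 250 bp it was found at 5 of the 23 (21.7%) and at 9.26% of the summits of all marked genes. The core of core promoter motif 1, GGTCACACT, was found in the promoters of 8 members (11%) and of 6.05% of all genes, and at 3 of the 23 summits, those of mRpL22, mRpL34 and mRpS6. At mRpL22 the centre of the word lay 4 bp from the summit. The word GAGAGA was found at 1 of 23 summits (4.35%), that of mRpL2, and at 16.4% of the summits of all marked genes. AAAAAA was in the promoters of 64.4% of members and 50.6% of all genes. GCGCATGC, the type of site bound by NRF1 and ewg, was in 1 promoter of the family (1.37%) and in 1.05% of all. Every word was sought on both strands, and a match describes the letters and not occupancy.

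The list of other genes of mitochondrial gene expression held 52 genes: translation factors, aminoacyl-tRNA synthetases, genes of transcription, RNA processing and DNA replication, and tko and bonsai. Of these 10 were marked (19.2%, interval 10.8 to 31.9), near the 20.5% of all protein-coding genes, and 9 had their own TSS nearest the summit. A divergent protein-coding neighbour was annotated for 28 of the 52 (53.8%). The strongest were PNPase, an RNA-degrading exonuclease, with a signal of 1387, SLIRP2, an RNA-binding protein gene, with 841.8, and HisRS, the histidyl-tRNA synthetase gene, with 743.6. The summit at SLIRP2 was nearer to Mkk4, a stress kinase gene. Translation factors were marked in 3 of 10 cases, waw, mEFG1 and mIF2, with signals of 510.8, 420.0 and 305.4 and each with its own TSS nearest. Promoters of the 52 genes had CAGCTG in 24 cases (46.2%), while 20 of 84 respiratory chain and ATP synthase genes had it (23.8%) and 9 of 92 cytosolic ribosomal protein genes (9.78%). Of the respiratory chain and ATP synthase genes, whose mitochondrially made partners the ribosome supplies, 13 of 84 were marked (15.5%, interval 9.27 to 24.7, which holds the 20.5% of all genes), with ND-15 at a signal of 1267 and ND-24 at 831.7. By own nearest TSS the 3 lists stood at 17.3% for gene expression, 8.33% for the respiratory chain and 6.85% for the ribosomal proteins, while all protein-coding genes stood at 16.2%.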

How the data were processed

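Peak lists of 3 ChIP libraries, against 1 shared control alignment per the file headers, were used. Per the file headers, peaks were called in each library and in the pool; each of these lists holds 30000 peaks. The authors' irreproducible discovery rate (IDR) list holds 6578, the strongest of the pooled list. Pooled ranks of marked genes were taken within these 6578 peaks, and those of unmarked members within the 30000. The signal value deposited by the authors has no stated scale, so it served only for ranks and descriptions inside 1 list. The -log10 q value given by the authors has a ceiling, at which 61.4% of thresholded peaks and 20 of the 23 members' peaks stood, so it ranked nothing. The software for alignment and peak calling and the IDR cutoff were not given in the sources used here. Depth is unknown.

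Genes and TSSs came from Ensembl release 115 (chromosomes 2L, 2R, 3L, 3R, 4 and X), sequence from Release 6; promoters were read from the genome at the 5'-most TSS. A peak was met in a library if a summit among its 6578 strongest peaks lay within 100 bp. Shares have 95% Wilson intervals, and no test was made, as there is 1 group. Scripts used python 3.11.15, pandas 2.3.3, numpy 2.4.6 and scipy 1.17.1 and were tested on simulated peaks. Members, lists and words were chosen with earlier results of these data known.

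Named were all marked members, the 6 unmarked members of best pooled rank, those with a thresholded summit between 1 and 2 kb, sharing neighbours and up to 4 marked genes per list; tko, bonsai and the members shown with E-boxes were named outside this rule. Of the sequences set by rule, those whose permitted window did not reach the summit, and those of 2 unmarked members, were not printed; the E-box windows were added. Gene lists were matched by symbol or synonym, and 4 names found no match.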

Additional observations from a re-analysis of the deposited data

How the results depend on the processing

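Of 75 alternatives, 53 left the value within its interval (or, for the median position, within the SD of the libraries), and 22 moved it. The marked share of the family (31.5%) stood above that of all genes in 15 of 16 alternatives. It was 20.5% for peaks met in all 3 libraries (all genes 12.7%) and 43.8% for the whole pooled list (all genes 37.3%). It was 15.1% where the peak interval had to hold a TSS (all genes 12.0%), and 6.85% by nearest TSS alone, the exception (all genes 16.2%). Leaving out each replicate gave 20.5% to 26.0% (all genes 14.3% to 15.2%), where peaks had to be met in both other libraries. For the large subunit these settings gave 17.0% for peaks met in all 3 libraries, 12.8% by interval, 8.51% by nearest TSS, and 17.0% to 25.5% without a replicate. For the small subunit they gave 19.2% by interval and 3.85% by nearest TSS. The shares of all genes just given hold for both subunits, so 12.8% for the large subunit by interval was near the 12.0% of all genes. The share with a divergent neighbour was 100% for peaks met in all 3 libraries and 94.7% to 100% without a replicate. Peaks met in all libraries were 39.1% at 50 bp and 91.3% against whole lists. TATCGATA was found at 21.7% of summits within 250 bp (all marked genes 9.26%). The median position was -186 bp for the summit nearest a TSS, -223 bp with a window of 500 bp, and -290 to -251 bp without a replicate. CAGCTG was found in 72.6% of members and 42.0% of all genes within 500 bases of the TSS, a window, like the narrower one and the protein-coding neighbours, chosen after seeing the data. The pooled list behind each such set still holds all 3 libraries. The causes were not tested. No paired analysis was possible because there is 1 group. The shared control enters every list, and without read counts the precision rests on the number of genes.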

Other observations

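The family's chromosomes differed in their marked counts without clear separation. On 2R 6 of 12 members were marked (50%, Wilson interval 25.4 to 74.6), on 3L 6 of 17 (35.3%, 17.3 to 58.7), on X 3 of 11 (27.3%, 9.75 to 56.6), on 2L 3 of 12 (25.0%, 8.89 to 53.2) and on 3R 5 of 21 (23.8%, 10.6 to 45.1). Of all protein-coding genes, 18.2% were marked on 2R, 21% on 3L, 26.7% on X, 19.4% on 2L and 18.9% on 3R. The members' interval lies above the chromosome's own share on 2R and holds it on the other 4. All 12 members on 2R have a divergent protein-coding neighbour, and 35.9% of all genes on 2R do. The marked share of all genes with such a neighbour, 29.1% over all chromosomes, lies inside the 2R interval. All of the members' intervals overlap. On 3L all 6 marked members were met in each of the 3 libraries, while on X, with mRpL3, mRpL22 and mRpL33, 1 of 3 was. Of all marked genes, 60.9% on 3L and 61.7% on X were met in all 3, and the members' counts are small. The 3 marked members on X had signals from 231.1 to 266.5, all below the family's median of 323.9.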
